A study of Mus musculus with 6 samples.

Results

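The lysosome and secretory granule machinery was followed in liver iNKT1 cells through 40 genes listed by name. They cover lysosomal proteases, glycosidases and lipid-degrading enzymes, the precursor proteins prosaposin and progranulin, lysosomal membrane proteins, subunits of the proton pump, transcription factors of lysosome genes and proteins that dock and release granules. Values were found for 39 of the 40 among 12942 genes, and all 39 passed the filter on low values. Cd63 was not analysed here.

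The cells were sorted from mouse liver with a CD1d tetramer and a YFP reporter. Invariant natural killer T (iNKT) cells are T cells with an innate character whose receptor sees lipids bound to CD1d, and the iNKT1 subset expresses T-bet, a transcription factor encoded by Tbx21. Control cells had the genotype Tbx21Cre Rosa26-YFP+. The second group, named cKOHet, had the genotype Tbx21Cre Ets1F/F Tbx21F/+ Rosa26-YFP+, that is, 2 floxed Ets1 alleles and 1 floxed Tbx21 allele on the same Cre and reporter background. Tbx21Cre drives deletion in cells that have expressed Tbx21, so it acts in T-bet-expressing lineages and not in one cell type, and both groups carried it. Effects of Ets1 loss and of the floxed Tbx21 allele cannot be told apart in this design. Each group had 3 libraries, numbered 1, 2 and 4. The labels name neither the mice behind them nor their ages, so a p-value here measures spread between libraries, which may be technical. The design text also lists thymic cells and a genotype with only Ets1 floxed, not analysed here.

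Levels are the authors' normalised read counts, which summed to between 4996523 and 5219483 per library, and the original sequencing depth is unknown. Ets1 was 7391, 6255 and 7787 in controls 1, 2 and 4 and 462, 596 and 441 in cKOHet 1, 2 and 4, a 14.3-fold lower mean. Tbx21 was 2568 ± 174 in controls and 2206 ± 98.5 in cKOHet (SD, n = 3; limma adjusted p = 0.196). All 10 T and iNKT cell markers were tested and present in every library, among them Cd3e (4031 ± 706 in controls and 5083 ± 559 in cKOHet). Of these markers Zbtb16 rose, from 648 ± 21.7 to 954 ± 261, and 3 fell: Trbc1 from 3452 ± 275 to 2031 ± 327, Trbc2 from 5038 ± 524 to 2195 ± 273 and Il2rb from 20260.4 ± 338 to 12376 ± 1882. The list summed to 45161 to 51036 in controls and 36823 to 39860.0 in cKOHet. Replicate 4 of each group stood apart, with Xist at only 1.17 and 0.0816 against 4337 to 5657 in the other libraries, and with Ddx3y, a Y-linked gene, at 519 and 604. Calls that ended without these libraries, that is, with the high-Xist libraries (replicates 1 and 2) alone, are given with that value. Those libraries alone, 2 against 2, gave calls for 14.9% of all genes tested, beside 21.4% with all 6 libraries. For replicate 1 of either group the column code joins a pair of names, and nothing in the labels says why. The titles of control replicate 4 and cKOHet replicate 1 say iNKT, whereas the other titles say iNKT1.

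Lysosomes are acidified by a vacuolar proton pump and filled with hydrolases, most of which are tagged with mannose 6-phosphate in the Golgi and carried by receptors to endosomes. In cytotoxic lymphocytes the secretory granule is a modified lysosome. Cathepsin C trims granzymes to their active form there, and Rab27a, Munc13-4 (Unc13d) and Munc18-2 (Stxbp2) dock the granule and prepare its fusion with the plasma membrane. The factors TFEB and TFE3 bind CLEAR-type elements in promoters of many lysosome genes.

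The set moved in both directions. Of the 39 genes, 9 rose and 4 fell in cKOHet cells at a limma adjusted p under 0.05, and 26 did not pass. The 13 calls are 33.3% of the members, beside 21.4% of all 11226 genes tested. One of them, Lgmn, reached the filter's minimum of 10 only in cKOHet libraries, so it could enter the test only by differing. Among the other 38 members 8 rose and 4 fell, or 31.6%, with a median log2 fold change of 0.16. Among all genes 11.5% were called higher and 9.97% lower. The 6 libraries separated the groups without overlap for 22 members, 15 of them higher and 7 lower, and for 35.8% of all genes. The median log2 fold change was 0.18 over the members and 0.01 over all genes tested, and 27 members lay above 0. Summed over the members, the level was 42115, 39736 and 42014 in controls and 44112, 48582 and 50383 in cKOHet. This sum weighs members by count. Means went from 9471 to 10741 for Laptm5, which was not called, from 5837 to 9357 for Ctsd and from 4400 to 5670 for Psap. The mean of Lyst went from 3736 to 1998. Without the mean-variance trend in the variance model, 7 members were called, 6 higher and 1 lower, beside 14.9% of all genes, and the calls of Ctsa, Ctss, Manba, Psap, Grn and Lyst ended. In these bulk samples fewer cells of a type and less RNA per cell cannot be told apart.

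**Figure D1:**
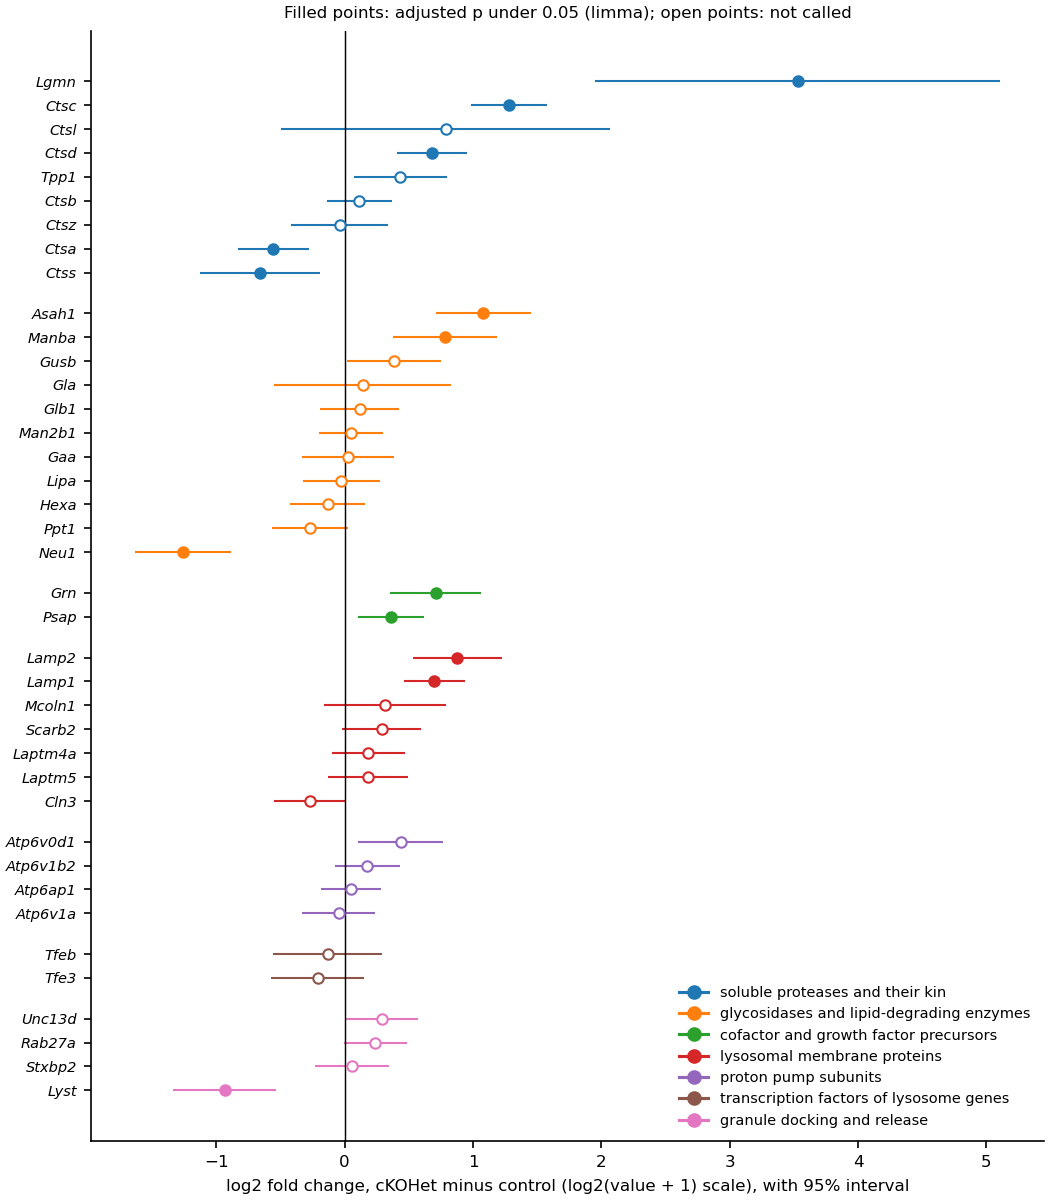
Log2 fold change of the 39 genes, cKOHet minus control on the log2(value + 1) scale, with 95% intervals, grouped and coloured by role. Filled points passed the test, 9 to the right of 0 and 4 to the left, while the proton pump subunits and transcription factors are all open points.

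**Figure D2:**
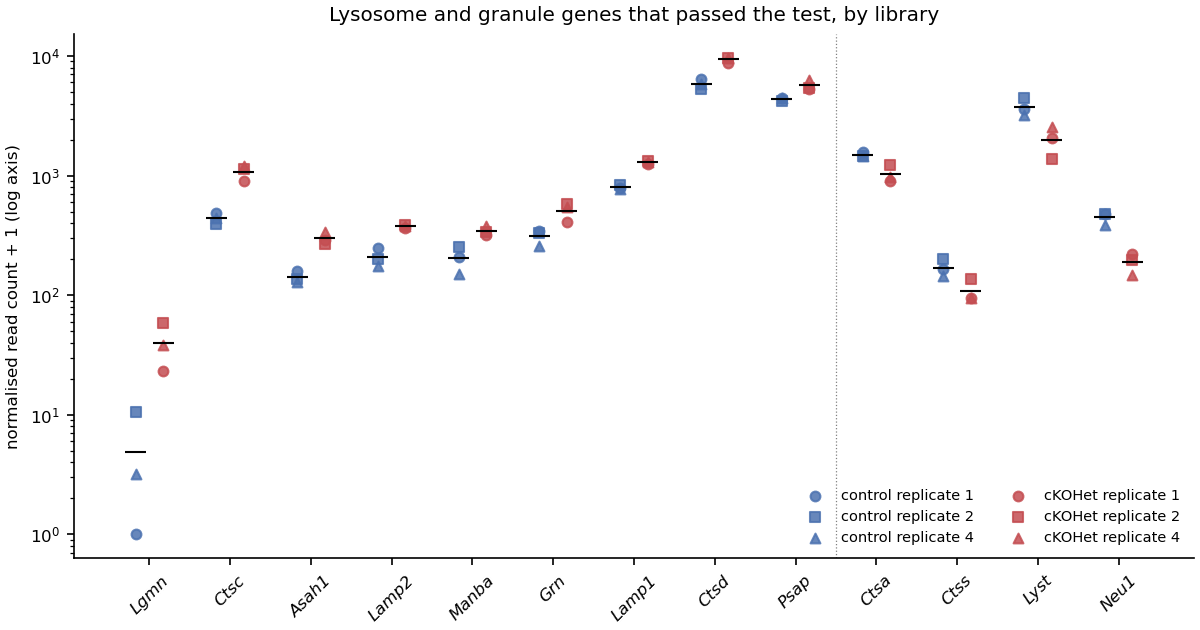
Normalised read count plus 1 on a log axis for the 13 genes that passed, with 1 symbol per library and a black bar at the group mean. Genes left of the dotted line were higher and those right of it lower in cKOHet, and in each gene the 3 libraries of one group lie outside the range of the other.

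Among the proteases Ctsc, Ctsd and Lgmn rose, Ctsa and Ctss fell, and Ctsb, Ctsl, Ctsz and Tpp1 did not pass the test. Their median log2 fold change was 0.43, or 0.27 without Lgmn. All log2 fold changes refer to log2(value + 1), a scale that understates differences of genes with low counts.

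Cathepsin C (Ctsc, ENSMUSG00000030560, mm10 chromosome 7, 88278085 to 88310888) is the dipeptidyl peptidase that removes the propeptide of granzymes. Its level was 487, 396 and 438 in controls and 902, 1129 and 1196 in cKOHet. Every cKOHet library lay well above the controls, with a log2 fold change of 1.28 (limma adjusted p = 6.85e-06, SE 0.14, 95% interval 0.99 to 1.58), or 2.43-fold.

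Cathepsin D (Ctsd, ENSMUSG00000007891, chromosome 7, 142375911 to 142388038) is the main aspartic protease of lysosomes. Its level was 6392, 5318 and 5800 in controls and 8722, 9691 and 9659 in cKOHet. The groups did not overlap, and the log2 fold change was 0.68 (limma adjusted p = 0.00114, SE 0.13), or 1.61-fold. Exons of another annotated gene cover 34.4% of the Ctsd exon bases, and whether counting used strand is not given in the sources consulted. How reads on the shared bases were counted, and so their effect on the Ctsd level, is not known. Ctsb, the gene of the cysteine protease cathepsin B, was 2495 ± 173 in controls and 2705 ± 287 in cKOHet (SD, n = 3; limma adjusted p = 0.564). The ratio of Ctsd to Ctsb counts was 2.38, 2.18 and 2.46 in controls and 3.57, 3.22 and 3.62 in cKOHet, again without overlap.

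Legumain (Lgmn, ENSMUSG00000021190, chromosome 12, 102394084 to 102439813) is an asparaginyl endopeptidase that also activates other lysosomal proteases. It was listed at 0, 9.57 and 2.22 in controls, against 22.2, 57.9 and 37.4 in cKOHet. No control reached the filter's minimum of 10, so the gene was tested only because its cKOHet libraries did, and its p-value is not given as support. The log2 fold change of 3.53 (SE 0.74) is a description of low values. It was 2.37 with a pseudocount of 5, 4.38 without control replicate 2 and 2.68 without control replicate 1.

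Some markers of macrophages and Kupffer cells, the resident macrophages of the liver, were also higher in cKOHet. Of 15 such markers, 11 had values, 6 were tested, 3 rose and 0 fell. Their summed level was 103, 74.3 and 38.8 in controls and 238, 170.1 and 185 in cKOHet. Among cKOHet libraries Lgmn was highest in replicate 2 (57.9), where this sum was lowest. Clec4f, a Kupffer cell lectin, was 11.01, 5.36 and 1.15 against 22.2, 32.7 and 24.9, and Csf1r, the receptor for macrophage colony-stimulating factor, was 11.9, 2.20 and 4.32 against 27.2, 24.2 and 27.0. Cd5l, among the 3 that rose, was 4.51, 0.0671 and 2.20 against 27.2, 11.1 and 33.1. C1qa, tested but not called, was 6.38, 6.38 and 6.40 against 13.1, 18.6 and 17.6. Like Lgmn, both passed the filter only through cKOHet libraries, so they could enter the test only by being higher. Among cKOHet libraries Clec4f and C1qa were, like Lgmn, highest in replicate 2, whereas the other tested markers in this list were highest in replicate 1 or 4. No marker in this list exceeded 42.3 in any library. Of 10 dendritic cell markers, 6 were tested and 5 rose, from sums of 189 to 243 in controls to 463 to 574 in cKOHet. The part of such cells in the Lgmn result was not tested. Markers on other lists fell or were not called. Ly6c2 of the neutrophil and monocyte list fell from 2452 ± 383 to 524 ± 186. Ighm of the B and plasma cell list fell from 1954 ± 94.9 to 943 ± 155. Pecam1 of the endothelial and stellate cell list fell from 196 ± 23.9 to 43.5 ± 7.48. Of 9 hepatocyte markers 3 were tested and 0 were called. No erythroid or platelet marker was tested. NK and mast cell markers are given below.

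**Figure D3:**
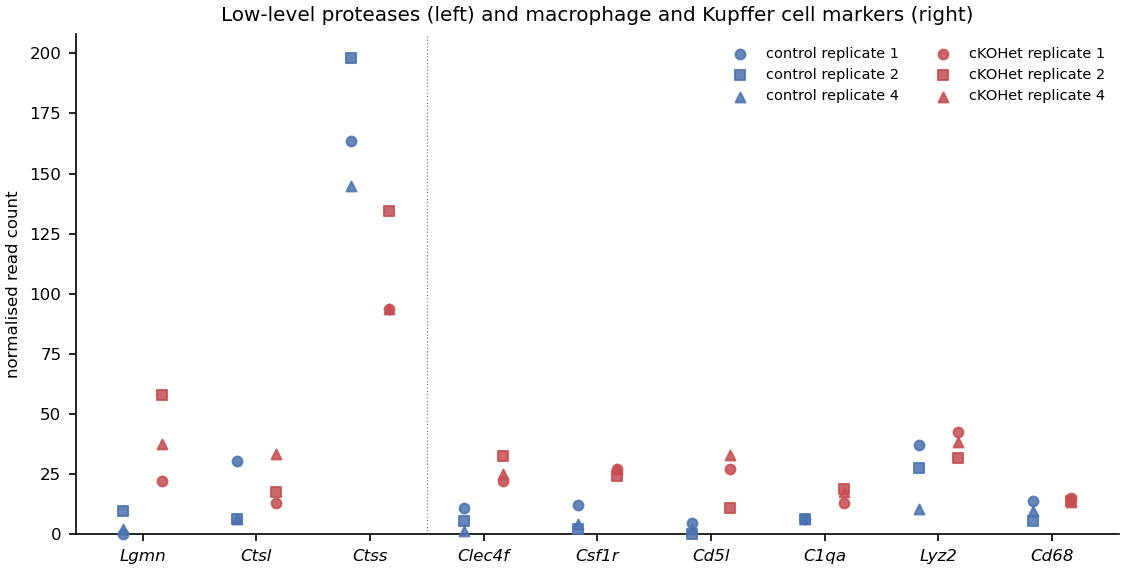
Normalised read count per library for the low-level proteases Lgmn, Ctsl and Ctss and for 6 macrophage and Kupffer cell markers. Lgmn, Clec4f, Csf1r and Cd5l lie in the same low range and are higher in cKOHet, while Ctss lies above 90 in every library and is lower.

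Cathepsin S (Ctss, ENSMUSG00000038642, chromosome 3, 95526786 to 95556403), the cysteine protease known for processing the MHC class II invariant chain in antigen-presenting cells, went the other way. Its level was 163, 198 and 145 in controls and 93.7, 134 and 93.7 in cKOHet. The groups did not overlap, and the log2 fold change was -0.66 (limma adjusted p = 0.044, SE 0.22). The call ended without control replicate 1 (adjusted p = 0.0946), control replicate 2 (0.168), cKOHet replicate 1 (0.123) or cKOHet replicate 4 (0.123), and with the high-Xist libraries alone (0.111). Cathepsin L (Ctsl), a cysteine endopeptidase, was 30.6, 6.41 and 6.43 in controls and 13.1, 17.6 and 33.2 in cKOHet. Its interval of -0.49 to 2.07 was the widest among the members that did not pass, and its log2 fold change of 0.79 became 1.49 without control replicate 1.

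Cathepsin Z (Ctsz), a carboxypeptidase, was 266 ± 63.5 in controls and 255 ± 13.5 in cKOHet (SD, n = 3; limma adjusted p = 0.916). Tripeptidyl peptidase 1 (Tpp1) was 341, 265 and 370 in controls and 355, 506 and 459 in cKOHet, so its groups overlapped. Its log2 fold change was 0.43 (limma adjusted p = 0.0863), and without cKOHet replicate 1 it was 0.58 and passed (0.0313).

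Cathepsin A (Ctsa), sialidase 1 (Neu1) and beta-galactosidase (Glb1) form one multienzyme complex in lysosomes, in which cathepsin A protects the other two. Transcripts of the first pair fell and that of the third did not pass the test. Ctsa (ENSMUSG00000017760, chromosome 2, 164832873 to 164841032) was 1581, 1464 and 1451 in controls and 893, 1219 and 971 in cKOHet. The groups did not overlap, with a log2 fold change of -0.56 (limma adjusted p = 0.00567, SE 0.13), and 17.4% of its exon bases are shared with other genes.

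Neu1 (ENSMUSG00000007038, chromosome 17, 34931253 to 34935953), which removes sialic acids, was 479, 478 and 387 in controls and 221, 196 and 147 in cKOHet. The lowest control was above every cKOHet library, and the log2 fold change of -1.26 (limma adjusted p = 7.93e-05, SE 0.17, 95% interval -1.64 to -0.89), a 2.40-fold lower level, was the largest fall among the members. Glb1 was 270.5, 268 and 251 in controls and 278, 275 and 303 in cKOHet. Its groups did not overlap either, but in the upward direction, and its log2 fold change of 0.12 had an interval of -0.19 to 0.43 (limma adjusted p = 0.64).

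Ratios within a library set these 3 transcripts side by side. The ratio of Neu1 to Glb1 counts was 1.77, 1.78 and 1.54 in controls and 0.794, 0.713 and 0.485 in cKOHet. The ratio of Ctsa to Glb1 counts was 5.85, 5.46 and 5.79 in controls and 3.21, 4.43 and 3.21 in cKOHet. Neither ratio overlapped between groups.

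Of the 11 glycosidases and lipid-degrading enzymes, 2 rose, Neu1 fell and 8 did not pass, with a median log2 fold change of 0.05. Acid ceramidase (Asah1, ENSMUSG00000031591, chromosome 8, 41340197 to 41374773), which splits ceramide into sphingosine and fatty acid, was 159, 135 and 128 in controls and 288, 268 and 339 in cKOHet. The groups were far apart, with a log2 fold change of 1.08 (limma adjusted p = 0.000313, SE 0.17), or 2.11-fold. Beta-mannosidase (Manba, ENSMUSG00000028164, chromosome 3, 135485611 to 135571404) was 209, 253 and 149 in controls and 317, 334 and 381 in cKOHet. It rose by a log2 fold change of 0.78 (limma adjusted p = 0.00767, SE 0.19). With the high-Xist libraries alone the value was 0.50 and did not pass (limma adjusted p = 0.0883).

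The other members of this role showed smaller differences. Beta-glucuronidase (Gusb) was 175, 222 and 209 in controls and 225, 292 and 276 in cKOHet, without overlap, and did not pass (log2 fold change 0.38, limma adjusted p = 0.135). Palmitoyl-protein thioesterase 1 (Ppt1) was 571, 473 and 453 in controls and 435, 382 and 420.5 in cKOHet, also without overlap (-0.27, limma adjusted p = 0.196). For the genes whose products degrade gangliosides (Hexa), glycogen (Gaa), globosides (Gla), mannose-rich glycans (Man2b1) and cholesteryl esters (Lipa), log2 fold changes lay between -0.13 and 0.14. Alpha-mannosidase Man2b1 was the most abundant of these by count, at 1088 ± 36.7 in controls and 1131 ± 111 in cKOHet (SD, n = 3).

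Both precursor proteins rose. Prosaposin (Psap, ENSMUSG00000004207, chromosome 10, 60277627 to 60302597) is cut into saposins, the cofactors that present sphingolipids to their hydrolases. It was 4494, 4225 and 4483 in controls and 5338, 5380 and 6291 in cKOHet. The groups did not overlap, and the log2 fold change was 0.36 (limma adjusted p = 0.0439, SE 0.12). The call ended on leaving out control replicate 1 (adjusted p = 0.115), 2 (0.140) or 4 (0.0870) or cKOHet replicate 2 (0.0689) or 4 (0.115), and with the high-Xist libraries alone (0.142).

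Progranulin (Grn, ENSMUSG00000034708, chromosome 11, 102430315 to 102437048), a secreted growth factor precursor that is processed in lysosomes to granulins, was 345, 328 and 256 in controls and 407, 578 and 543 in cKOHet. It rose by a log2 fold change of 0.71 (limma adjusted p = 0.00593, SE 0.17), with no overlap between groups. With the high-Xist libraries alone the value was 0.53 (limma adjusted p = 0.0874).

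The major glycoproteins of the lysosomal membrane rose together. Lamp1 (ENSMUSG00000031447, chromosome 8, 13159161 to 13175338), also known as CD107a and used as a surface mark of degranulation, was 788, 834 and 767 in controls and 1256, 1325 and 1301 in cKOHet. Libraries of one group lay close together and far from the other group, with a log2 fold change of 0.70 (limma adjusted p = 0.000269, SE 0.11), or 1.62-fold. Lamp2 (ENSMUSG00000016534, chromosome X, 38401357 to 38456454), which also serves as a receptor for chaperone-mediated autophagy, was 247, 198 and 173 in controls and 361, 388 and 381 in cKOHet. Its log2 fold change was 0.88 (limma adjusted p = 0.001, SE 0.16), or 1.84-fold, again without overlap.

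The other 5 membrane proteins measured did not pass. Scarb2, the receptor that carries glucocerebrosidase to lysosomes, was 349.8, 373 and 308 in controls and 392, 395 and 475 in cKOHet, without overlap (log2 fold change 0.29, limma adjusted p = 0.183). Cln3, altered in juvenile neuronal ceroid lipofuscinosis, was 774, 701 and 646 in controls and 626, 617 and 513 in cKOHet, also without overlap but lower (-0.27, limma adjusted p = 0.164). Laptm5, a lysosomal protein of blood cells that lowers antigen receptor levels, had the highest count of all members at 9471 ± 1197 in controls and 10741 ± 1291 in cKOHet (SD, n = 3; limma adjusted p = 0.439). The calcium channel gene Mcoln1 (0.32, limma adjusted p = 0.363) and Laptm4a (0.19, limma adjusted p = 0.381) had small positive values.

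No proton pump subunit among the members passed the test. Atp6v1a and Atp6v1b2 encode the catalytic core, Atp6v0d1 a subunit that joins it to the membrane sector, and Atp6ap1 an accessory protein. Atp6v1a was 444 ± 32.7 in controls and 429.8 ± 33.1 in cKOHet, and Atp6ap1 was 941 ± 38.3 and 974 ± 19.8 (SD, n = 3; limma adjusted p = 0.858 and 0.807). Atp6v1b2 was 549, 538 and 521 against 592, 601 and 627, without overlap, a log2 fold change of 0.18 (limma adjusted p = 0.337). Atp6v0d1 was 313, 324 and 341 in controls and 451, 531 and 359 in cKOHet. Its groups did not overlap and its log2 fold change was 0.44 (95% interval 0.11 to 0.77, limma adjusted p = 0.0589). It passed without cKOHet replicate 4 (0.59, adjusted p = 0.0128), and with the high-Xist libraries alone (0.62, adjusted p = 0.0212).

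Across the whole pump, with 15 further tested genes, 0 of 19 rose and 1 fell. That gene was Tcirg1, the membrane subunit a3 found in secretory lysosomes and in osteoclasts. It was 319, 319.6 and 347 in controls and 232, 217 and 152 in cKOHet, with no overlap and a log2 fold change of -0.73 (limma adjusted p = 0.00731, SE 0.18). With the high-Xist libraries alone it was -0.51 and did not pass (limma adjusted p = 0.0672).

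The genes of the transcription factors did not pass the test. Tfeb was 157, 149 and 228 in controls and 166, 161 and 151 in cKOHet, and the groups overlapped (log2 fold change -0.13, limma adjusted p = 0.711). Tfe3 was 206, 208 and 203 in controls and 185, 157 and 193 in cKOHet. Its groups did not overlap, with lower values in cKOHet (-0.21, limma adjusted p = 0.436). These are transcript levels, whereas the activity of both factors is known to be set largely by phosphorylation and nuclear entry.

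Promoters were read to show which members carry the CLEAR-type core TCACGTGA, which is its own reverse complement, within 250 bases before to 50 after a RefSeq start (GRCm38.p6). A promoter was matched for 35 of the 39 members. The core was present in 7 of 35, or 20%, beside 1.12% of 27025 genes and 2.49% of the 8269 tested genes with a promoter. Of the 7, Ctsd rose, Ctsa fell, and Gla, Mcoln1, Cln3, Atp6v0d1 and Atp6v1a did not pass the test, so members with the core were found in each class. The windows below give 1 match for each, 5′ to 3′ on the strand of the gene, with the core in capitals.
Ctsd, chr7:142387909-142387936, minus strand, annotated exon: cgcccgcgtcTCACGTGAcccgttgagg
Ctsa, chr2:164833750-164833777, plus strand, annotated exon: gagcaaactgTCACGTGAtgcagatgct
Cln3, chr7:126583341-126583368, minus strand, annotated exon: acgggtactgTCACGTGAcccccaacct
Mcoln1, chr8:3500463-3500490, plus strand, annotated exon: ggcgccccgcTCACGTGAccgcggcgca
Atp6v0d1, chr8:105566051-105566078, minus strand, before the first exon: cctactgcggTCACGTGAgacgcggtgc
Atp6v1a, chr16:44139374-44139401, minus strand, intron: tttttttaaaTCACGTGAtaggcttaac
Gla, chrX:134601183-134601210, minus strand, before the first exon: gagatctcggTCACGTGAgcaactctcg

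The shorter E-box CACGTG, which lies inside that core and is also its own reverse complement, was present in 14 of 35 promoters, or 40%, beside 8.09% of all genes and 12.2% of tested genes. Among called members Ctsa, Ctsd, Lgmn and Lamp1 held it. Lamp1 is shown because it carries 4 copies in the 71 bases directly before its annotated start. None of these copies has both flanking bases of the CLEAR-type core.
Lamp1, chr8:13159090-13159160, plus strand, outside exons: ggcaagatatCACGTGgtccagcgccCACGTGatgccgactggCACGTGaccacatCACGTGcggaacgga

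The Ets-type core CCGGAA, read on both strands, was present in 7 of 35 member promoters, or 20%, beside 16.7% of all genes and 35.2% of tested genes. Of the 12 called members with a promoter, Ctsc alone held it. The match reads TTCCGG on the strand of the gene and begins 4 bases after the RefSeq start, in an annotated exon. These matches describe letters and not binding, which was not measured.
Ctsc, chr7:88278079-88278104, plus strand, annotated exon: gaccctgggtTTCCGGgctcttgggt

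Among the genes for granule docking and release only Lyst passed. Lyst (ENSMUSG00000019726, chromosome 13, 13590397 to 13778803), whose loss gives the enlarged lysosomes and granules of Chediak-Higashi syndrome and the beige mouse, was 3595, 4427 and 3187 in controls and 2046, 1383 and 2564 in cKOHet. The groups did not overlap, and the log2 fold change was -0.93 (limma adjusted p = 0.0019, SE 0.19, 95% interval -1.33 to -0.54), a 1.91-fold lower level.

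The docking and priming genes had small positive values. Rab27a, the small GTPase that docks granules, was 922, 916 and 913 in controls and 977, 1122 and 1157 in cKOHet, without overlap. Its log2 fold change was 0.24 with an interval of -0.01 to 0.48 (limma adjusted p = 0.168). Unc13d, which primes docked granules, was 1203, 1373 and 1683 in controls and 1622, 1832 and 1721 in cKOHet, so the groups overlapped (0.29, limma adjusted p = 0.136). Without control replicate 4 it passed at 0.42 (limma adjusted p = 0.0395). Stxbp2, the partner of syntaxin 11 in granule fusion, was 751 ± 122 and 777 ± 62.3 (SD, n = 3; 0.06, limma adjusted p = 0.825).

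For the 26 members that did not pass, the 95% intervals bound what could have been missed. For 19 of them the interval lay within 1.5-fold either way, and for 25 within 2-fold, with Ctsl the exception. Of the 26, 18 had values above 0 and 8 below.

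Compared per kilobase of exon, 3 genes stood well above the rest in both groups. Normalised reads per kb in controls and in cKOHet numbered 2500.2 and 2836 for Laptm5, 2483 and 3980.1 for Ctsd, and 1604 and 2066 for Psap. Ctsb followed in controls at 412 and 447. The order then shifted: Lamp1 moved from the eighth place to the fourth (298 and 484 per kb), Ctsc from 24 to 13 (75.8 and 185), Ctsa from 5 to 11 (318 and 218) and Neu1 from 20 to 31 (120.0 and 50.3). Lyst, which has a long transcript, was at 214 and 114 per kb despite its high count. In controls the lowest levels per kb were those of Lgmn (1.69) and Ctsl (2.23), and in cKOHet those of Ctsl (3.28) and Gla (14.6), with Lgmn at 16.8.

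**Figure D4:**
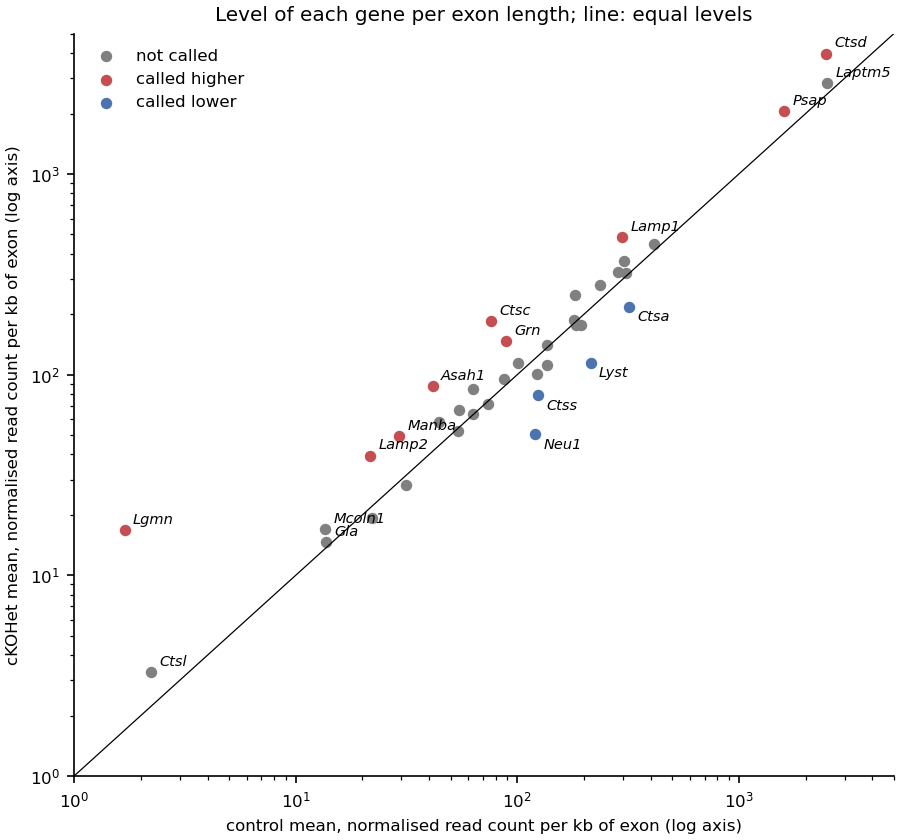
Mean normalised read count per kb of exon in control (horizontal, log axis) and cKOHet cells (vertical, log axis) for each of the 39 genes, coloured by call, with a line of equal levels. Laptm5, Ctsd and Psap form the upper end above 1600 per kb in both groups, and Lgmn lies farthest above the line at the lower end.

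The other genes of the pathway were read from 9 lists with 206 genes, of which 187 were tested. In all 32 rose and 10 fell, or 22.5%, beside 21.4% of all genes, and the median log2 fold change was 0.21. Their share called was thus close to that of all genes. By list it ranged from 6.67% for the other proton pump genes to 100% for inhibitors of cathepsins and granzymes.

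The list for enzyme sorting and nutrient sensing had 5 of 14 tested genes higher and 0 lower. The called genes were Igf2r, Gnptab and Gnptg of the sorting route and Rragc and Fnip1 of nutrient sensing, where Gnptg and Rragc are named after their values were seen. Igf2r, the cation-independent mannose 6-phosphate receptor, was 794, 732 and 727 in controls and 1682, 1701 and 2201 in cKOHet, far apart, with a log2 fold change of 1.30 (limma adjusted p = 2.73e-06, SE 0.13). Gnptab encodes subunits of the phosphotransferase that builds the mannose 6-phosphate tag, and was 228, 153 and 222 against 368, 416 and 290.4 (log2 fold change 0.84, SE 0.19, limma adjusted p = 0.00493). Fnip1, a partner of folliculin in nutrient sensing, rose by 0.71 (limma adjusted p = 0.0173), but not without control replicate 4 (0.0686) or cKOHet replicate 1 (0.0713), nor with the high-Xist libraries alone (0.65, adjusted p = 0.0832). Gnptg likewise did not pass with those libraries alone (0.48, limma adjusted p = 0.0665), nor without control replicate 4 (0.0762) or cKOHet replicate 2 (0.0678). Rragc rose by 0.49 (limma adjusted p = 0.0478), close to the threshold, and its call was not followed under the alternatives. M6pr, the cation-dependent receptor, chosen here after its values were seen, was 1636 ± 109 and 1695 ± 48.1 (SD, n = 3; limma adjusted p = 0.800).

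Of the 38 other lysosomal enzymes tested, 7 rose and 5 fell. Arsb, a sulfatase of dermatan sulfate, was 1424, 1625 and 1600.3 in controls and 698, 676 and 728 in cKOHet, a log2 fold change of -1.14 (limma adjusted p = 3.05e-06, SE 0.11) without overlap. Acp5, the tartrate-resistant acid phosphatase, was 727, 818 and 652 against 282, 313 and 317 (-1.26, limma adjusted p = 6.23e-06). Scpep1, a serine carboxypeptidase, was 42.4, 13.8 and 28.6 against 103, 116 and 102 (2.01, limma adjusted p = 0.000846). Each of these had fully separate groups. The sphingolipid hydrolases Galc and Smpd1, chosen after their values were seen, rose as well, Galc from 14.4 ± 8.52 to 62.0 ± 4.16 (limma adjusted p = 0.00148) and Smpd1 from 270 ± 40.2 to 455 ± 85.6 (0.0051; SD, n = 3).

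Of 29 other membrane proteins and transporters, 2 rose and 1 fell. Slc17a5, the lysosomal sialic acid exporter, was 73.7, 61.3 and 47.7 in controls and 179, 143 and 183 in cKOHet. It rose by a log2 fold change of 1.47 (limma adjusted p = 0.000355), opposite in direction to the sialidase gene Neu1. The cation channel gene Tpcn1 was 228, 218 and 239 against 136, 127 and 155 and fell (-0.71, limma adjusted p = 0.00777). Laptm4b rose by 1.34 (limma adjusted p = 0.0145), but lost its call on leaving out control replicate 1 (0.0612) or replicate 1 (0.0705) or 4 (0.0516) of cKOHet, or with the high-Xist libraries alone (1.52, adjusted p = 0.0547).

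Of 25 other docking and fusion genes 3 rose. Rab27b, the close relative of Rab27a, was 28.5, 31.8 and 27.6 in controls and 170.2, 111 and 112 in cKOHet, wide apart, with a log2 fold change of 2.10 (limma adjusted p = 5.78e-05, SE 0.28). Rab37, another secretory Rab, rose by 0.54 (limma adjusted p = 0.0132), but not when replicate 1 of the controls (0.0640) or replicate 1 (0.0623) or 2 (0.0593) of cKOHet was left out. Stxbp3 rose by 0.50 (limma adjusted p = 0.0487), and this call ended whichever library was left out, and with the high-Xist libraries alone (0.38, adjusted p = 0.234). Among 25 genes of the AP-3, BLOC and HOPS complexes, which build lysosome-related organelles, only Hps1 (0.50, limma adjusted p = 0.0270) and Dtnbp1 (0.44, 0.0471) rose. Dtnbp1 kept its call without cKOHet replicate 2 and lost it without any other library (0.0725 to 0.156) or with the high-Xist libraries alone (0.44, limma adjusted p = 0.140). Hps1 lost its call on leaving out control replicate 1 (0.0907), control replicate 2 (0.102), cKOHet replicate 1 (0.0891) or cKOHet replicate 2 (0.0746).

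Of 8 granule cargo genes tested, 3 rose and 1 fell. Granzyme B (Gzmb) was 1846, 2838 and 2643 in controls and 15034, 19913 and 12849 in cKOHet, a log2 fold change of 2.71 (limma adjusted p = 5.34e-08, SE 0.18). Perforin (Prf1), the pore former that lets granzymes enter targets, was 391, 361 and 562 against 48.4, 112 and 49.0 (-2.72, limma adjusted p = 5.36e-06). Granzyme A (Gzma) was 141, 137 and 70.96 against 565, 2719 and 411, and its log2 fold change of 2.94 (limma adjusted p = 0.000423) was 2.11 without cKOHet replicate 2. With a robust variance estimate it did not pass (limma adjusted p = 0.0982). For every unit of Ctsc counts there were 3.79, 7.17 and 6.04 of Gzmb in controls and 16.7, 17.6 and 10.8 in cKOHet, and the ranges did not overlap.

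Markers of NK cells, which also carry cytotoxic granules, were read beside the cargo. Of 6 such markers 5 were tested, 3 rose and 0 fell, and Gzma is itself 1 of the 3. Klra8, also among the 3, was 2.63, 2.21 and 4.33 in controls and 49.3, 28.8 and 39.4 in cKOHet. It passed the filter only through cKOHet libraries, so it could enter the test only by being higher. Eomes was 0.812, 12.6 and 0.0653 against 14.1, 26.2 and 12.5, so its groups overlapped. Ncr1, a defining receptor of NK cells, lay between 5.52 and 9.47 in all libraries and was lower in each cKOHet library than in any control. The list summed to 1062, 718 and 2722 in controls and 1843, 3652 and 1800.3 in cKOHet. Most of each sum came from Klrb1c and Gzma, so the sums follow these genes and do not measure NK cells. Gzma alone was 2719 in cKOHet replicate 2. Klrb1c was 892, 545 and 2626 in controls and 1169, 859 and 1289 in cKOHet (limma adjusted p = 0.994). Klra4 was not called either (limma adjusted p = 0.135). The part of NK cells in the cargo values was not tested.

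All 7 tested inhibitors of cathepsins and granzymes passed, 5 higher and 2 lower, beside 21.4% of all genes. Cst7, cystatin F, which inhibits cathepsin C in the granule, was 371, 285 and 284 in controls and 599, 1048 and 838 in cKOHet (log2 fold change 1.37, SE 0.18, limma adjusted p = 5.78e-05). The ratio of Ctsc to Cst7 counts was 1.31, 1.39 and 1.54 in controls and 1.51, 1.08 and 1.43 in cKOHet, and these ranges overlapped. Serpinb6a was 99.6, 76.1 and 80.4 against 317, 274 and 269 (1.74, limma adjusted p = 7.67e-06). Serpinb1a, an inhibitor of neutrophil-type serine proteases, was 47.8, 12.8 and 43.5 against 468, 218 and 295 (3.33, limma adjusted p = 2.48e-05), and 2.74 without control replicate 2. Serpinb9, an inhibitor of granzyme B chosen after its values were seen, fell by 0.54 (limma adjusted p = 0.0174), but not without control replicate 1 (0.0611), control replicate 2 (0.0655) or cKOHet replicate 2 (0.0844), nor with the high-Xist libraries alone (-0.57, adjusted p = 0.0579).

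Of 26 autophagy genes tested, 5 rose and 0 fell, or 19.2% called, beside 21.4% of all genes. Ulk2, a kinase that starts autophagy, was 257, 249 and 173 in controls and 412, 463 and 668 in cKOHet (log2 fold change 1.17, limma adjusted p = 0.000469). Gabarap, a ubiquitin-like protein conjugated to autophagosome membranes, was 1024, 1036 and 1143 against 1553, 1433 and 1411 (0.46, limma adjusted p = 0.00804). Neither overlapped between groups. Atg9a rose by 0.81 (limma adjusted p = 0.0270), but not on leaving out replicate 2 or 4 of either group, nor with the high-Xist libraries alone (0.58, adjusted p = 0.233).

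**Figure D5:**
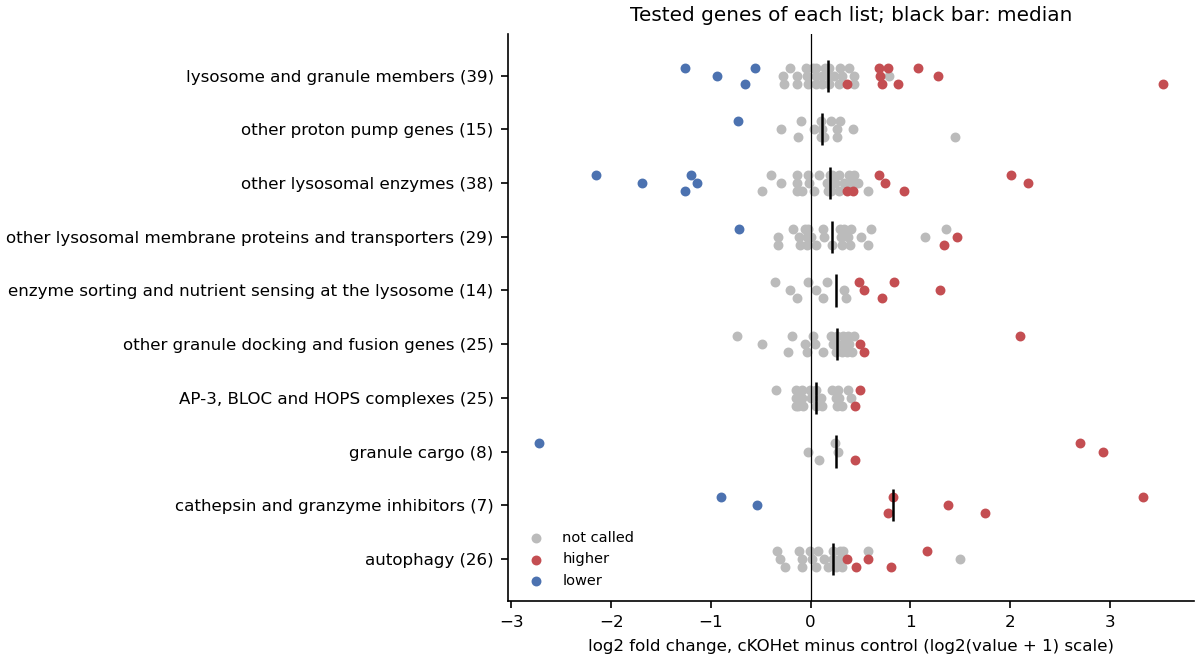
Log2 fold change, cKOHet minus control on the log2(value + 1) scale, of each tested gene in the member list and the 9 other lists, with the number tested in parentheses, the call as colour and the median as a black bar. The proton pump genes hold 1 call, Tcirg1 on the left, whereas all 7 inhibitors are called, 5 on the right and 2 on the left.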

How the data were processed

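RNA was sequenced from sorted liver iNKT1 cells, 3 control and 3 cKOHet libraries. Per the labels' protocols, RNA came from RNeasy mini kits and libraries from the Ovation Ultralow system. The authors deposited a signal for each Ensembl gene, called normalised HTSeq counts in the table's name. Trimmomatic 0.33, STAR, HTSeq 0.6.1 and DESeq2 were used with mm10, per the submitters' processing notes. Settings, strandedness and scaling are not given in the sources used. The values are not whole and whole reads were not recovered, so the depth is unknown and no count test was run. Every gene reached at least 5.22 in some library, so low genes had been removed before deposit.

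GENCODE M21 (GRCm38) named 12870 of 12942 identifiers and gave positions and exon lengths. A gene was tested where 3 or more of the 6 libraries reached 10, which held for 11226. Values were fitted as log2(value + 1) with limma 3.58.1 in R 4.3.3, using the trend of variance with level, adjusted over all genes tested (Benjamini-Hochberg), and called at an adjusted p under 0.05. The script was tested on simulated data. Levels are mean ± SD of 3 libraries. Promoters came from RefSeq.

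The members, the 9 pathway lists and the 10 marker lists were chosen with earlier results of these data known, so counts and medians are given without a test over a list. From each pathway list the 3 called genes with the smallest adjusted p were named, or 1 where none was called, and any other gene was chosen after its values were seen. Alternatives changed the pseudocount, filter, scaling, variance model or threshold, added a replicate block, or left out each library. A term for low Xist and the high-Xist libraries alone were added after the data were seen.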

Additional observations from a re-analysis of the deposited data

How the results depend on the processing

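The calls of Ctsc, Ctsd, Neu1, Asah1, Lamp1 and Lamp2 held under every alternative run. Lgmn was dropped by the filter at 50, where 12 of 36 members were called. Its calls under the other alternatives are not given as support, because no control reached the minimum of 10. The other 6 called members lost their call under at least 1 alternative. Without the mean-variance trend, 7 members were called, 1 of them lower, and 23 other pathway genes, in place of 13, 4 and 42. The calls of Ctsa, Ctss, Manba, Psap, Grn and Lyst ended there. At a threshold of 0.01, 1476 genes (806 higher, 670 lower) and 23 other pathway genes were called. With the high-Xist libraries alone, 2 against 2, 14.9% of all genes, 10 members and 27 other pathway genes were called. Of those members, 9 were also called with all 6 libraries. With all 6 libraries and a term for low Xist, 22.1% of all genes, the same 13 members and 42 other pathway genes were called. Stxbp3 did not pass there (limma adjusted p = 0.0529). With one library left out, the calls ranged from 1883 to 2207 over all genes (1002 to 1174 higher, 829 to 1033 lower), from 11 to 13 over members (8 to 10 higher, 3 to 4 lower) and from 29 to 35 over other pathway genes, and the members' median from 0.12 to 0.19. Among members that did not pass, 8 took both signs with one library left out: Ctsz from -0.15 to 0.15, Gaa from -0.12 to 0.16, Gla from -0.026 to 0.40, Man2b1 from -0.027 to 0.10, Lipa from -0.099 to 0.074, Atp6v1a from -0.11 to 0.015, Tfeb from -0.25 to 0.060 and Stxbp2 from -0.035 to 0.18. With the high-Xist libraries alone, Ctsz was 0.11 and Tfeb 0.10. M6pr, with one library left out, ranged from -0.0019 to 0.092. With library weights Ctss did not pass (limma adjusted p = 0.0597) and Atp6v0d1 did (0.0201). For the other named genes followed under the alternatives, Rragc not among them, 71 of the planned and 10 of the added recalculations lost a call. The causes were not tested. The replicate numbers were not treated as pairing: same-number correlations were 0.0917, 0.0878 and 0.0549, although each library correlated best with its own number, and with a replicate block 2412 genes, the same 13 members and 39 other pathway genes were called. Rescaling the columns moved the median of all genes to between -0.00252 and 0.00353. Unknown depth limits what can be said of the genes near 10, Lgmn and Ctsl among them.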

Other observations

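Cpa3, a secretory granule carboxypeptidase on the mast cell and basophil list and chosen after its values were seen, was 1.69, 6.45 and 4.35 in controls and 123, 79.8 and 112 in cKOHet. It passed the filter on low values only through the cKOHet libraries, so no test is given. It was the single gene of the 7 on that list with values, and the other 6 were not analysed here.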
